A study of Mus musculus with 21 samples.

Results

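The fragment of human parathyroid hormone (PTH) that lacks the first residues of the peptide, hPTH(7-34), was compared directly with the fragment that keeps them, hPTH(1-34), in cultured mouse osteoblasts. The comparison took the 3 arrays labelled hPTH(7-34) and the 3 labelled hPTH(1-34), 6 of the 21 arrays of the study, and covered 22180 genes. Each peptide was given at 100 nM for 4 h, and per the labels hPTH(1-34) came from Bachem and hPTH(7-34) from Prospec. Peptide and supplier thus cannot be told apart in this comparison. The cells were released by enzyme from the skull bones of C57BL/6J mice aged 7 to 10 days, were differentiated at passage 2 from day 3, and spent 24 h without serum after day 10, as did all groups. Further groups of 3 arrays served as references, namely vehicle alone, hPTH(1-31) at 100 nM, PTH(1-36) at 100 nM and bovine bPTH(3-34) at 100 nM, while (D-Trp12,Tyr34)-bPTH(7-34) amide, given at 1000 nM, entered only the estimate of each gene's spread. Cells were prepared separately for each biological replicate.

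PTH acts on osteoblasts through its receptor Pth1r, which couples mainly to the stimulatory G protein, raises cyclic AMP and activates protein kinase A, and so turns on genes controlled by the transcription factor CREB. The first residues of the peptide are needed for strong receptor activation, and fragments without them are known as weak agonists or antagonists. Inflammatory genes are commonly controlled by NF-kappaB, which is released when its inhibitor proteins are degraded after Toll-like receptor or cytokine signals, whereas interferon-stimulated genes follow the STAT and IRF factors. In bone, PTH is known for raising the osteoclast-forming cytokine RANKL (Tnfsf11) and lowering its decoy receptor osteoprotegerin (Tnfrsf11b).

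Signals are given on the log2 scale, so that a difference of 1 is a doubling. A gene was called where limma's test gave a Benjamini-Hochberg adjusted p under 0.05 over all 22180 genes, and differences are given with the model's standard error (SE) or its 95% interval. With 3 arrays a group, that interval reached 0.30 log2 units to either side of the direct difference in the median gene. Array medians lay between 3.49 and 3.61. The osteoblast label was checked against 7 measured markers of 9, which ran from Col1a1 at 13.2 to Bglap, osteocalcin, at 3.73 with vehicle. Macrophage and osteoclast markers, all 12 measured, ran with vehicle from Lyz2 at 12.2 to Calcr at 2.60, which lies below the array medians. The log2 of their summed signal was 13.85 to 14.07 with vehicle, 13.83 to 13.96 with hPTH(1-34) and 13.98 to 14.12 with hPTH(7-34). The ranges of the peptides did not overlap, although each overlapped that of vehicle. Of the 12, 0 were called directly, against 10.9% of all genes. In a longer list of 25 such markers 1 was called higher and 0 lower with hPTH(7-34), against 6.66% and 4.2% of all genes. Direct differences were above 0 in 20 of these 25, with a median of 0.15. Whole cultures were measured, so fewer cells of a type and less RNA per cell cannot be told apart.

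The first question was how far the responses to both peptides differed. The largest differences were in Vdr, the vitamin D receptor, Dgat1, an enzyme of triacylglycerol synthesis, and the early nuclear receptor Nr4a3, all of which hPTH(1-34) raised and hPTH(7-34) left without a call against vehicle. In all, 2409 of 22180 genes were called in the direct comparison, which is 10.9% of those tested, with 1478 (6.66%) higher and 931 (4.2%) lower with hPTH(7-34) than with hPTH(1-34), and 23.5% of genes had an unadjusted p under 0.05. Of the called genes, 908 differed by at least 1.5-fold, 259 by at least 2-fold and 38 by at least 4-fold. The strongest differences lay on the side where hPTH(1-34) was higher, with 35 of the 38. The split between directions depended on the scaling, since 61.4% of the calls were higher with hPTH(7-34) as deposited, 79.2% once each array was centred on its median, and 51.8% after a further quantile normalization. In 2392 of the called genes the 3 arrays of each peptide did not overlap, which held for 28.8% of all genes.

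Against vehicle the responses differed in extent. hPTH(1-34) gave 1917 calls (8.64%), 865 higher (3.9%) and 1052 lower (4.74%). hPTH(7-34) gave 16 calls (0.0721%), 13 higher (0.0586%) and 3 lower (0.0135%), while 1817 genes had an unadjusted p under 0.05, which is 8.19%. These comparisons use the same 3 vehicle arrays, so the values of each gene are given side by side below and no correlation between them is given. The genes were then divided by their calls. A gene called against vehicle in 1 direction with both peptides was taken as shared. A gene called with hPTH(1-34), not called with hPTH(7-34), and called in the direct comparison was taken as the hPTH(1-34) part, and the hPTH(7-34) part was defined in the mirrored way. By this rule 9 genes were shared and higher, 1 was shared and lower, and 0 moved in opposite directions. The hPTH(1-34) part held 630 higher and 853 lower genes, 61.6% of the direct calls. The hPTH(7-34) part held 4 higher and 2 lower genes. A further 918 genes were called directly but fell in no part, 621 of them higher and 297 lower with hPTH(7-34), and 424 were called with hPTH(1-34) against vehicle but neither with hPTH(7-34) nor directly. Hoxa7 and Ccl12 are both shared and called directly.

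**Figure D1:**
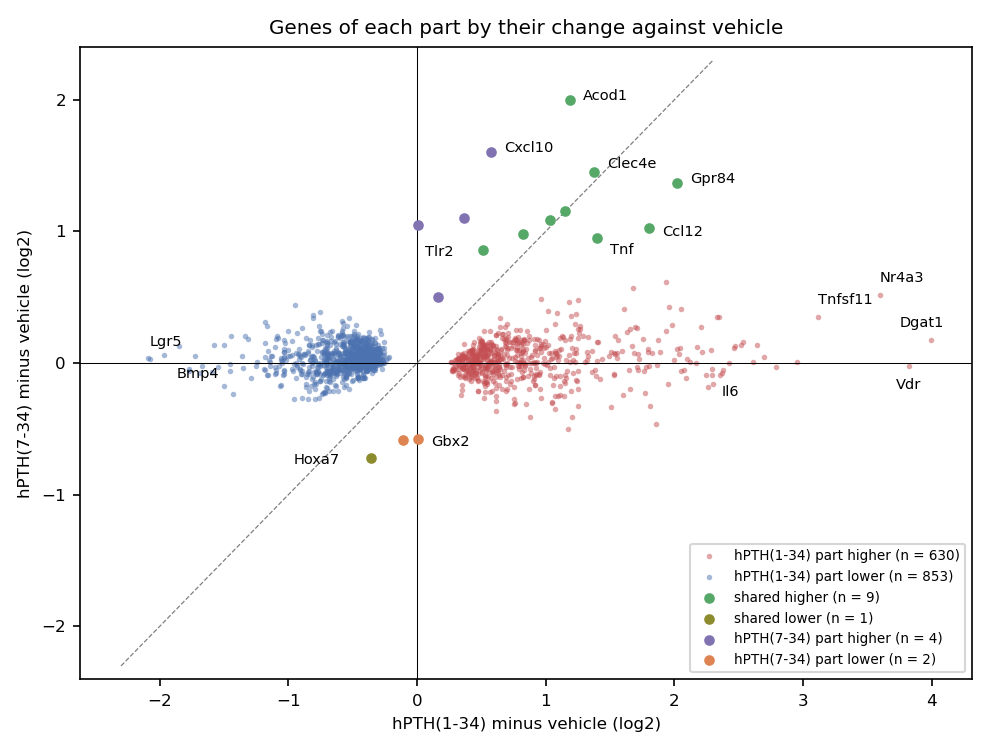
Change against vehicle with hPTH(1-34) (x axis, log2) and with hPTH(7-34) (y axis, log2) for the genes of each part, 1 point a gene, with a dashed line where both changes are equal. Both axes use the same 3 vehicle arrays. The 630 and 853 genes of the hPTH(1-34) part spread along the x axis, from -2.09 to 4.00, and lie between -0.50 and 0.61 on the y axis, while the 9 shared genes lie between 0.86 and 2.00 on the y axis.

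The part found with hPTH(1-34) was led by Vdr. Its signal with hPTH(1-34) was 10.93, 11.07 and 10.95 on the 3 arrays, with hPTH(7-34) 7.19, 7.02 and 7.20, and with vehicle 7.24, 7.24 and 7.00. The hPTH(7-34) arrays thus lay among the vehicle arrays and far below those of hPTH(1-34), without overlap. The direct difference was -3.85 ± 0.10 (SE), 14.4-fold (adjusted p = 3.09e-14). Dgat1 gave 9.81, 9.68 and 9.78 with hPTH(1-34) against 5.97, 5.84 and 5.99 with hPTH(7-34), a difference of -3.82 ± 0.10 (SE) or 14.2-fold (adjusted p = 3.09e-14). Its vehicle arrays, at 6.00, 5.63 and 5.65, overlapped those of hPTH(7-34). Lrrc32, which holds latent TGF-beta at the cell surface, differed 7.71-fold, with 9.68 to 9.81 on the hPTH(1-34) arrays and 6.70 to 6.87 on the hPTH(7-34) arrays. The 15 lowest direct differences named by rule also included Nr4a3, Nr4a2, Tnfsf11, Cxcl14 and Il6, described below, and Cbarp (-2.61), a regulator of calcium channels, Smim3 (-2.50), the iodotyrosine deiodinase Iyd (-2.45), the adhesion protein Nectin1 (-2.45), Shisal1 (-2.45), Dock9 (-2.43), an activator of the GTPase Cdc42, and Pdzrn4 (-2.42).

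Genes of the cyclic AMP and CREB early response followed this division. Of 30 measured, 16 were lower and 5 higher with hPTH(7-34) in the direct comparison, against 4.2% and 6.66% of all genes. The median difference was -0.48 against 0 over all genes. Against vehicle, hPTH(1-34) raised 18 and lowered 2, while hPTH(7-34) gave 0 calls in limma, with 5 higher and 1 lower at an unadjusted p under 0.05. Nr4a3 read 6.72, 7.17 and 7.01 with hPTH(1-34), 3.69, 4.18 and 3.78 with hPTH(7-34), and 3.17, 3.82 and 3.12 with vehicle. Its hPTH(7-34) arrays overlapped those of vehicle and lay below every hPTH(1-34) array, and the direct difference was -3.08 ± 0.19 (SE; adjusted p = 2.48e-09). The related receptors Nr4a2 and Nr4a1 differed by -2.81 ± 0.15 and -1.44 ± 0.16 (SE). Crem, whose inducible form represses CREB targets, differed by -1.07 ± 0.12 (SE), and the clock repressor Nfil3 by -1.35 ± 0.12 (SE). Fos differed less, at -0.55 ± 0.14 (SE; adjusted p = 0.0132), and its call was lost in 3 of the fits that each left out an array, those without hPTH(7-34) replicate 2 or hPTH(1-34) replicate 1 or 2 (highest adjusted p = 0.0621).

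Promoters were searched on both strands for the core of the cyclic AMP response element, TGACG, in the 250 bases before the gene start from RefSeq (GRCm38.p6), where 16990 of the genes had a window. TGACG occurred in 23.2% of these, in 37.6% of 487 higher and 25.5% of 679 lower genes of the hPTH(1-34) part, and in 0 of 8 shared genes, while the median GC content was 60.8%, 61.2% and 47.2% in these sets and 55.6% in all genes. A match is a description and not a site, and no match says only that the letters are not in the window. The window of Nr4a3, at chr4:48045055-48045304 (plus strand), is shown because this gene had one of the largest differences of the list. It runs 5′ to 3′ in the direction of transcription, ends at the base before the start and has matches to TGACG on either strand in capitals.
Nr4a3: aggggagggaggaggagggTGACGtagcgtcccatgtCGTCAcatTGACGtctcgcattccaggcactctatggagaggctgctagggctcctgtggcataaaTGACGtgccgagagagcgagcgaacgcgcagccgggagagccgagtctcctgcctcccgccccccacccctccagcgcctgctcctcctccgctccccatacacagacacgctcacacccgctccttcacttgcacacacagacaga
Its 4 matches begin 231, 213, 205 and 147 bases before the start.

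Receptor and cyclic AMP feedback genes moved with hPTH(1-34) in both directions. Of 37 measured, 9 were lower and 7 higher with hPTH(7-34), against 4.2% and 6.66% of all genes, with a median of 0.03. The lower ones included the phosphodiesterases Pde10a (-2.11 ± 0.10, SE) and Pde3b (-1.44 ± 0.11), which degrade cyclic nucleotides, the receptor partner Ramp3 (-2.32 ± 0.15) and the orphan receptor Gprc5a (-2.14 ± 0.15). Pth1r itself read 6.40, 6.04 and 5.89 with hPTH(1-34), 7.07, 7.16 and 7.24 with hPTH(7-34) and 7.20, 7.30 and 7.12 with vehicle. The receptor's mRNA was therefore 2.07-fold higher with hPTH(7-34) than with hPTH(1-34) (adjusted p = 9.87e-06), with overlapping hPTH(7-34) and vehicle arrays.

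Among 15 cytokines that support osteoclasts, 3 were lower and 4 higher with hPTH(7-34), against 4.2% and 6.66% of all genes. Tnfsf11, which encodes RANKL, read 7.23, 7.48 and 7.35 with hPTH(1-34), 4.70, 4.42 and 4.63 with hPTH(7-34) and 4.18, 4.28 and 4.25 with vehicle. All 3 hPTH(7-34) arrays lay above the vehicle arrays, but by 0.35 ± 0.19 (SE), which was not called (adjusted p = 0.667), against 3.12 ± 0.19 with hPTH(1-34). The direct difference was -2.77, with a 95% interval of -3.17 to -2.37. Tnfrsf11b, its decoy receptor, ran the other way, with 5.60, 5.19 and 5.27 on the hPTH(1-34) arrays and 6.95, 6.67 and 6.68 on the hPTH(7-34) arrays, a difference of 1.41 ± 0.15 (SE; adjusted p = 3.95e-06). Il34, a ligand of the macrophage receptor Csf1r, was higher with hPTH(7-34) by 1.05 ± 0.10 (SE). Il6 belongs to this list and to the inflammatory cytokines, and is described with them.

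**Figure D2:**
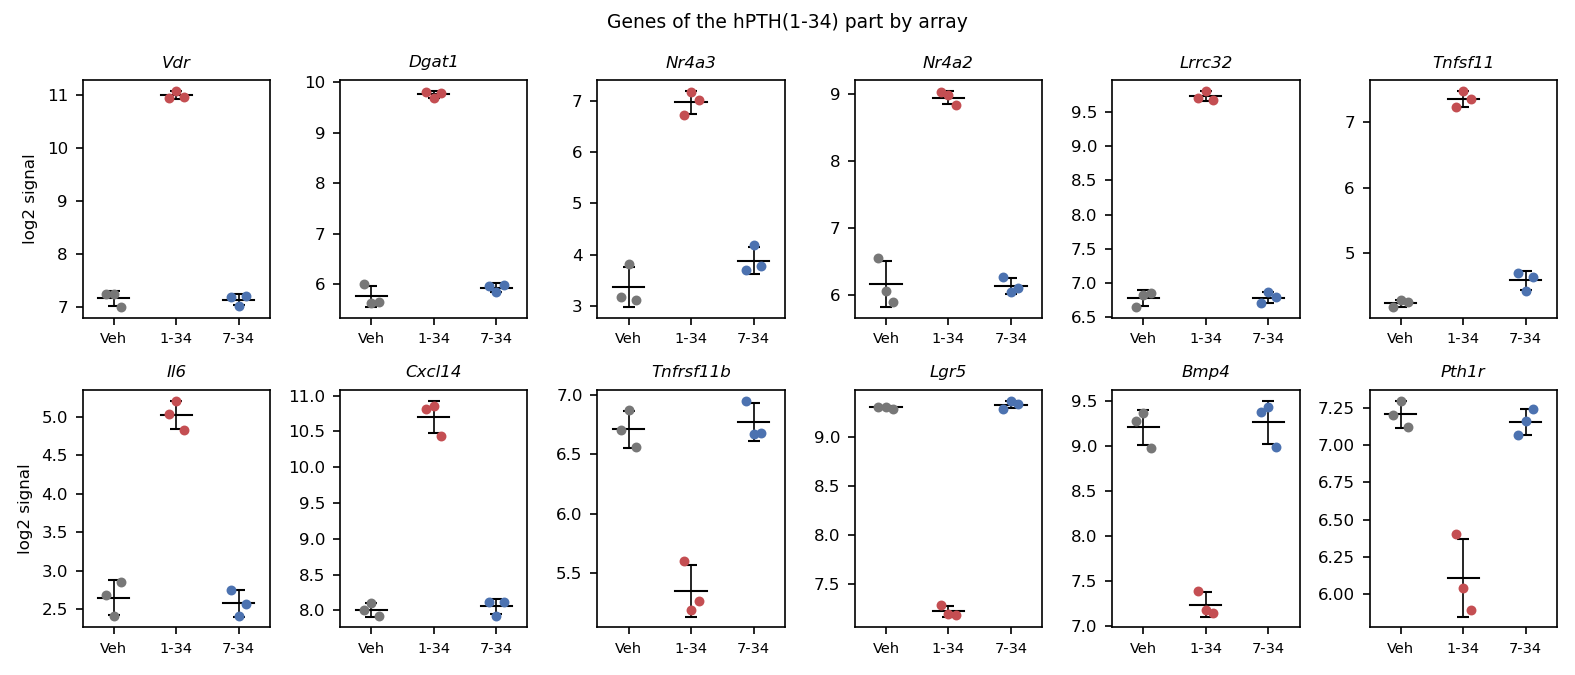
Log2 signal (y axis) of 12 genes of the hPTH(1-34) part on each of the 3 arrays of vehicle (grey), hPTH(1-34) (red) and hPTH(7-34) (blue), with the mean and SD in black. In all 12 the hPTH(1-34) arrays lie apart from the hPTH(7-34) arrays, as in Vdr, at 10.93 to 11.07 against 7.02 to 7.20.

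Wnt and BMP genes were among those most reduced by hPTH(1-34). Lgr5, a receptor of R-spondins, read 7.29, 7.20 and 7.19 with hPTH(1-34), 9.29, 9.37 and 9.34 with hPTH(7-34) and 9.31, 9.31 and 9.29 with vehicle, so that hPTH(7-34) was 4.31-fold above hPTH(1-34) (adjusted p = 8.46e-13). The R-spondins Rspo3 and Rspo2, which strengthen Wnt signals, differed by 1.65 ± 0.08 and 1.52 ± 0.10 (SE), and the Wnt receptor Fzd5 by 1.71 ± 0.08. Over the 49 Wnt genes measured, 8 were higher and 9 lower with hPTH(7-34), against 6.66% and 4.2% of all genes, with a median of -0.07. Bmp4 read 7.39, 7.18 and 7.14 with hPTH(1-34) and 9.37, 9.43 and 8.99 with hPTH(7-34), without overlap, a difference of 2.03 ± 0.15 (SE; adjusted p = 3.88e-08). Bmp2 differed by 1.78 ± 0.13, while the BMP antagonist Grem1 differed by -1.97 ± 0.09 (SE). Of 45 TGF-beta and BMP genes, 10 were higher and 8 lower with hPTH(7-34), with a median of 0.05.

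The highest direct difference was that of Dusp27, at 2.13 ± 0.20 (SE). The vasodilator peptide Adm (1.98), the hyaluronan-degrading Cemip (1.73), Rtl3 (1.71), the actin-binding Nexn (1.65), Mtss2 (1.63), the angiotensin receptor Agtr1b (1.54) and Rflnb (1.53) were also higher with hPTH(7-34). Trav9d-3, a T cell receptor segment, had a difference of 1.61 ± 0.32 (SE) on the brightest of its 5 transcript clusters but 0.12 on their mean (adjusted p = 0.725), so its clusters disagreed. In matrix genes, where 6 of 29 were higher and 5 lower, the hyaluronan synthase Has2 (-1.81 ± 0.09, SE) and the protease Adamts4 (-1.71 ± 0.12) were lower and Adamts5 (1.10 ± 0.08) was higher with hPTH(7-34), while Mmp13, collagenase-3, did not pass the test at 0.08 (95% interval -0.13 to 0.28). Of 17 circadian genes 4 were higher and 5 lower, with Per3 at 1.07 ± 0.12 and Arntl, the gene of BMAL1, at -0.97 ± 0.10 (SE). Cholesterol synthesis genes had 3 of 17 higher and 5 lower, with the mevalonate enzyme Pmvk at -2.12 ± 0.12 (SE). Of 22 osteoblast matrix and differentiation genes 2 were higher and 2 lower. The shares over all genes, beside which these list counts stand, were 6.66% higher and 4.2% lower. The transcription factor Sp7 was at 0.65 ± 0.13 and alkaline phosphatase Alpl at -0.62 ± 0.10 (SE). Col1a1 was at -0.03 and Bglap at -0.20, neither called.

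**Figure D3:**
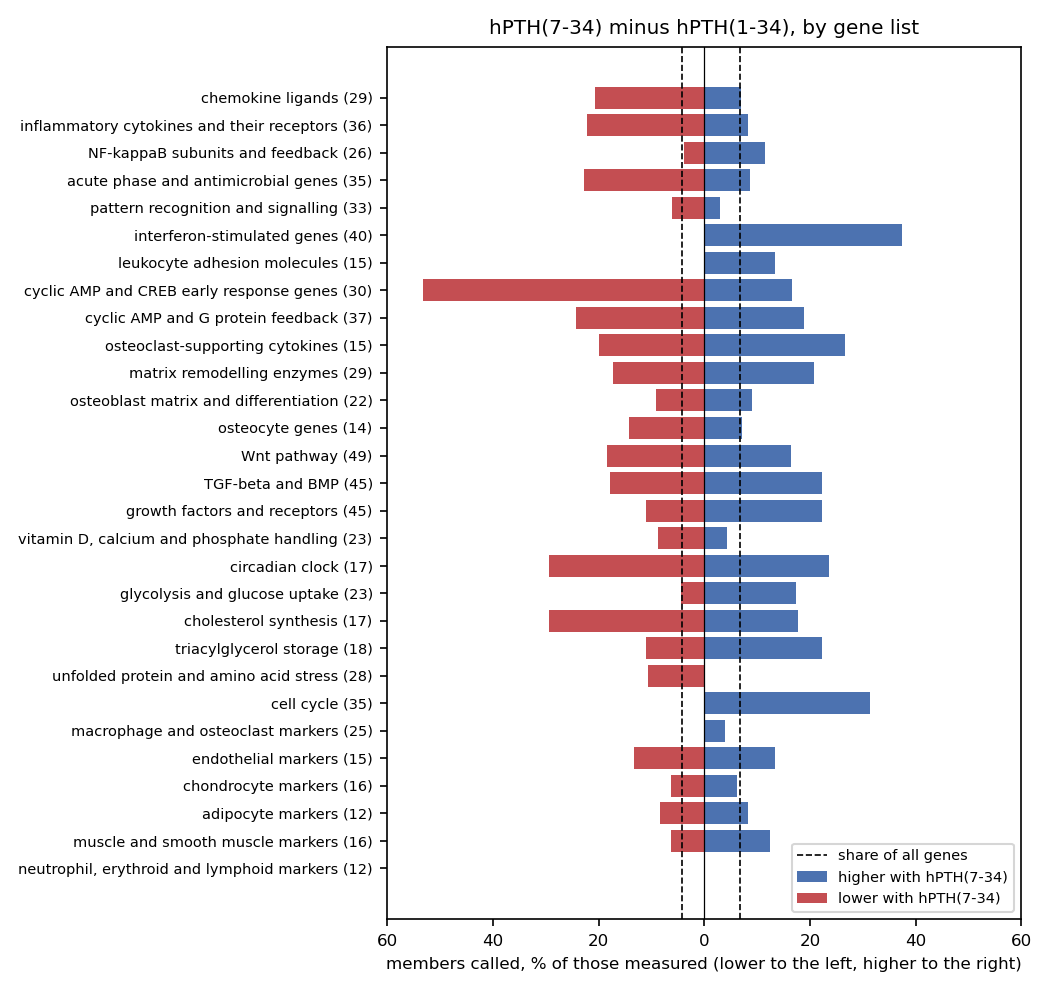
Share of the measured members of each gene list (number measured in brackets) called higher (blue, to the right) or lower (red, to the left) with hPTH(7-34) than with hPTH(1-34). Dashed lines give the shares over all genes, 6.66% higher and 4.2% lower; the cyclic AMP and CREB list has the longest bar to the left, 16 of 30, and the interferon-stimulated list the longest to the right, 15 of 40.

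For these genes hPTH(7-34) showed little change against vehicle. The 95% interval of its effect lay within 1.5-fold in 579 of the 630 higher genes and in 836 of the 853 lower genes of the hPTH(1-34) part, against 76.4% of all genes, and its median effect was 0.03 in both sets. The absence of a call with hPTH(7-34) was part of the rule, so these values are a description. Some members nonetheless had values above 0 with hPTH(7-34), such as Bcl3, a nuclear partner of NF-kappaB, at 0.57 ± 0.12 (SE; adjusted p = 0.168), compared with 1.68 with hPTH(1-34).

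The inflammatory genes were divided between the parts. Over 7 lists with 214 genes measured, hPTH(1-34) raised 44 and lowered 5 against vehicle, beside 3.9% and 4.74% of all genes. hPTH(7-34) raised 9 and lowered 0, beside 0.0586% and 0.0135% of all genes. Of the 44, 8 were shared, 20 were in the hPTH(1-34) part and 16 could not be told apart between the peptides. In the direct comparison 29 of the 214 were higher and 25 lower with hPTH(7-34), against 6.66% and 4.2% of all genes. The 9 shared genes were, besides Gpr84, a receptor of medium-chain fatty acids, 8 members of these lists, namely the pattern receptors Tlr2 and Clec4e, the cytokine Tnf, the monocyte chemokines Ccl2 and Ccl12, the NF-kappaB inhibitors Nfkbie and Tnip3, and Acod1, the itaconate-forming enzyme of stimulated macrophages. The lists were chosen with earlier results of these data known, so the count of 8 is a description and not a test.

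Acod1 read 5.62, 5.54 and 5.60 with hPTH(1-34), 5.90, 6.08 and 7.22 with hPTH(7-34) and 4.46, 4.82 and 3.92 with vehicle. Both peptides lay above all vehicle arrays, by 1.19 ± 0.27 and 2.00 ± 0.27 (SE; adjusted p = 0.0074 and 0.00284), and the direct difference of 0.81 did not pass the test (adjusted p = 0.0611). Clec4e read 7.55, 7.78 and 7.79 with hPTH(1-34) and 7.60, 7.55 and 8.19 with hPTH(7-34), against 6.11, 6.55 and 6.33 with vehicle. The peptides overlapped, and the direct difference was 0.07, with a 95% interval of -0.30 to 0.45. Tnip3 and Ccl2 were as close, at 0.06 (-0.23 to 0.35) and 0.01 (-0.39 to 0.40). Ccl2 read 7.87, 7.76 and 7.86 with hPTH(1-34), 7.53, 7.57 and 8.41 with hPTH(7-34), and 6.62, 6.70 and 6.72 with vehicle. Both peptides again lay above every vehicle array, and the range of hPTH(7-34) enclosed that of hPTH(1-34). Nfkbie differed by 0.16 (-0.12 to 0.43).

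The direct interval lay within 1.5-fold in 5 of the 9 shared genes, against 66% of all genes. Tlr2 was the fifth of these, with 7.35, 7.22 and 7.39 with hPTH(1-34), 7.52, 7.56 and 7.92 with hPTH(7-34), and 6.78 to 6.82 with vehicle. Its arrays did not overlap between the peptides, and the difference of 0.35 ± 0.11 (SE) just missed the threshold (adjusted p = 0.0519). Ccl12 was the only one of the 9 called directly. It read 7.12, 7.26 and 6.68 with hPTH(1-34), 6.13, 6.12 and 6.47 with hPTH(7-34), and 5.12, 5.53 and 5.00 with vehicle, so hPTH(7-34) stood between the others without overlap, with a difference of -0.78 (adjusted p = 0.00224). Tnf at -0.45 ± 0.16 and Gpr84 at -0.65 ± 0.21 (SE) had values in the same direction (adjusted p = 0.0859 and 0.0501).

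**Figure D4:**
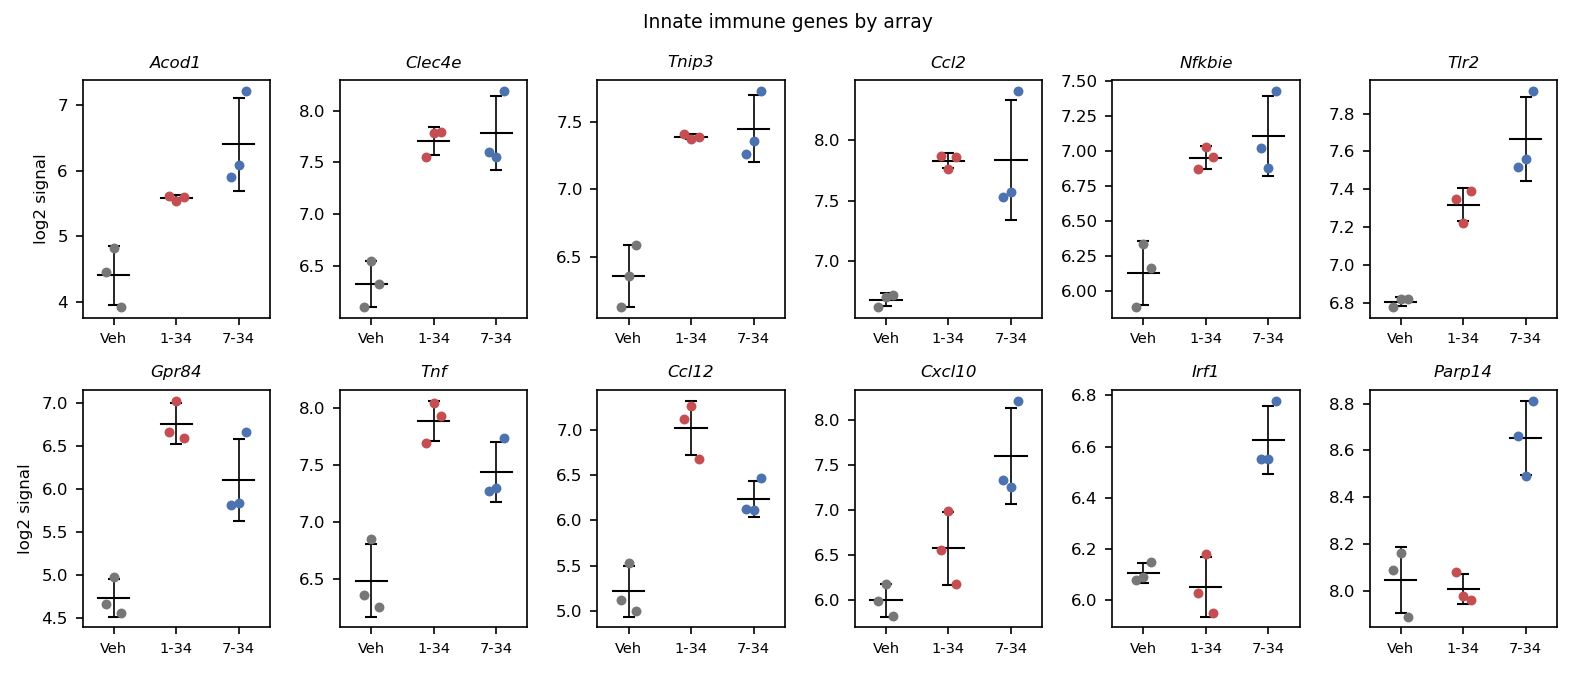
Log2 signal (y axis) of 12 innate immune genes on each of the 3 arrays of vehicle (grey), hPTH(1-34) (red) and hPTH(7-34) (blue), with the mean and SD in black. The first 9 panels are the shared genes, in which both peptides lie above vehicle, and hPTH(7-34) replicate 3 is the highest of its group in each; in Irf1 and Parp14 the hPTH(7-34) arrays lie above all others.

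The shared set rested on few calls. hPTH(7-34) replicate 3 was the highest of its group in 9 of the 9 shared genes, against 32.8% of all genes. Without it the shared set fell to 7 by the loss of Ccl12 and Tnf, and the direct differences of Gpr84 (-0.93, adjusted p = 0.00309) and Tnf (-0.60, adjusted p = 0.0293) were then called. Without vehicle replicate 3 the set held 5 genes (Ccl12, Ccl2, Gpr84 and Tnf were lost), without vehicle replicate 1 Ccl12, Ccl2 and Tnf were lost, and without hPTH(7-34) replicate 2 Tnf was lost. Acod1, Clec4e, Nfkbie, Tlr2 and Tnip3 stayed shared whichever array of these 3 groups was left out. With the spread estimated only from the arrays compared the set held 0, and hPTH(7-34) then had 1 call against vehicle. The arrays of bPTH(3-34), a fragment with 0 calls against vehicle in limma (1313 genes at an unadjusted p under 0.05, 5.92%), allowed a comparison with no arrays in common. With bPTH(3-34) as the control of hPTH(7-34) and vehicle as that of hPTH(1-34), 8 of the 9 genes were shared, Ccl2 being lost (adjusted p = 0.105), and 11 genes were called with hPTH(7-34) (0.0496%). With the controls exchanged all 9 remained, out of 2068 calls with hPTH(1-34) (9.32%), 3.94% of genes higher and 5.38% lower. The arrays of both peptides were still those by which the 9 genes were chosen, so these counts show only the effect of the control. Of the 25 macrophage and osteoclast markers in the gene lists, 20 had values above 0 with hPTH(7-34) against vehicle (median 0.13) and 12 with hPTH(1-34) (median -0.01), with 0 called for hPTH(7-34) and 3 at an unadjusted p under 0.05. Their part in the shared response was not tested.

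The 16 genes that could not be told apart were called with hPTH(1-34) against vehicle but neither with hPTH(7-34) nor directly. All 16 had values above 0 with hPTH(7-34), with a median of 0.50 against 0.57 with hPTH(1-34), and the direct interval lay within 1.5-fold in 14. The absence of a direct call was part of how these genes were chosen, so small direct differences follow from the choice and do not show that the peptides act alike. They included the NF-kappaB feedback inhibitors Nfkbia (0.72 with hPTH(1-34) and 0.55 with hPTH(7-34)) and Tnfaip3 (0.58 and 0.68), and the adhesion molecule Icam1 (0.54 and 0.69). Icam1 read 8.21, 8.24 and 7.90 with hPTH(1-34), 7.98, 8.15 and 8.67 with hPTH(7-34) and 7.46, 7.72 and 7.54 with vehicle, so that both peptides lay above vehicle and overlapped each other. Ptgs2, the inducible cyclooxygenase, was further apart, at 0.99 and 0.31, with a direct difference of -0.68 (95% interval -1.18 to -0.18, adjusted p = 0.0779). The gene nearest to the shared set from outside was the chemokine Ccl7, chosen here after its values were seen, with an adjusted p of 0.098 for hPTH(7-34), and Tnf was the last inside at 0.0252.

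The 20 inflammatory genes of the hPTH(1-34) part had a median change of 1.05 with hPTH(1-34) and 0.10 with hPTH(7-34). Il6 read 5.04, 5.20 and 4.83 with hPTH(1-34), 2.75, 2.41 and 2.57 with hPTH(7-34) and 2.69, 2.41 and 2.86 with vehicle. The hPTH(7-34) and vehicle arrays overlapped at a signal below the array medians, and the direct difference was -2.45 ± 0.25 (SE; adjusted p = 1.39e-06). Whether Il6 stood above background there is not known from these values, so the size of its difference may be understated and no fold is given. The chemokine Cxcl14 read 10.82, 10.85 and 10.44 with hPTH(1-34) and 8.12, 7.93 and 8.12 with hPTH(7-34), a 6.26-fold difference (adjusted p = 1.81e-10). The neutrophil chemokines Cxcl1 and Cxcl5 differed by -0.83 ± 0.20 and -0.77 ± 0.13 (SE). Receptors belonged to this group as well, with the interleukin-4 receptor Il4ra at -1.43 ± 0.09, the interleukin-1 receptor Il1r1 at -1.25 ± 0.10 and the oncostatin M receptor Osmr at -0.67 ± 0.08 (SE). So did acute phase genes, such as the metallothionein Mt2 (-1.69 ± 0.22), the protease inhibitor Slpi (-1.35 ± 0.12) and the zinc transporter Slc39a14 (-1.19 ± 0.08).

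The pentraxin Ptx3 went the other way, falling by 1.09 with hPTH(1-34) and 1.28 ± 0.08 (SE) higher with hPTH(7-34) than with hPTH(1-34). Lcn2, lipocalin-2, was called directly at -0.48 ± 0.13 (SE; adjusted p = 0.0189) but against vehicle with neither peptide, and its direct call was lost without hPTH(7-34) replicate 1 or 3 or hPTH(1-34) replicate 2. Ccl5, Cxcl2, Nos2, Saa3 and Vcam1 passed no test with either peptide or between them. By list, the chemokine ligands had 2 of 29 higher and 6 lower with hPTH(7-34), the inflammatory cytokines and receptors 3 of 36 and 8, and the acute phase genes 3 of 35 and 8. Over all genes 6.66% were higher and 4.2% lower, so the higher counts lay near the share of all genes. The medians of these lists were -0.06, -0.08 and -0.06, and turned to 0.02, 0.00 and 0.02 when arrays were centred on their medians. The NF-kappaB subunits and feedback genes had 3 of 26 higher and 1 lower with hPTH(7-34), with a median of 0.095. Pattern recognition genes had 1 of 33 higher and 2 lower (median 0.18), and leukocyte adhesion molecules 2 of 15 higher and 0 lower (median -0.03). Direct differences were above 0 in 15 of the 26, 24 of the 33 and 7 of the 15.

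Among the interferon-stimulated genes the direct calls lay on the side of hPTH(7-34). In the direct comparison 15 of 40 were higher and 0 lower, against 6.66% and 4.2% of all genes. At an unadjusted p under 0.05, 0 were lower too, and the median difference was 0.34 against 0 over all genes. The count of 15 higher was 19 with arrays centred on their medians, 11 after a further quantile normalization, 11 with the spread estimated only from the arrays compared, and 8 to 11 when each array of either peptide was left out in turn (8 without hPTH(1-34) replicate 3), with 0 lower in each. Irf1, a transcription factor of the interferon response, read 6.03, 6.18 and 5.95 with hPTH(1-34), 6.55, 6.55 and 6.78 with hPTH(7-34), and 6.08, 6.09 and 6.15 with vehicle. Its 3 hPTH(7-34) arrays lay above all others, with a direct difference of 0.57 ± 0.10 (SE; adjusted p = 0.00107). Parp14 read 8.08, 7.98 and 7.96 with hPTH(1-34), 8.66, 8.49 and 8.81 with hPTH(7-34), and 8.09, 8.16 and 7.89 with vehicle, a direct difference of 0.65 ± 0.12 (SE; adjusted p = 0.00144). Neither gene was called with hPTH(7-34) against vehicle (adjusted p = 0.102 for both).

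In other members the difference came in part from lower values with hPTH(1-34). The antiviral GTPase Mx2 had values of -0.65 with hPTH(1-34) and 0.47 with hPTH(7-34) against vehicle, neither called, and a direct difference of 1.13 ± 0.21 (SE; adjusted p = 0.00111). The RNA sensor Ifih1 fell by 0.46 with hPTH(1-34) (adjusted p = 0.0209) and was at 0.16 with hPTH(7-34). Against vehicle, hPTH(7-34) gave 0 calls in the list with limma, 20 members with an unadjusted p under 0.05, and values above 0 in 37 of 40 (median 0.28). hPTH(1-34) gave 1 higher and 1 lower call and a median of -0.05.

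The part found with hPTH(7-34) alone held the interferon-induced chemokine Cxcl10, Pstpip2 and the predicted genes Gm12250 and Gm8995 as higher genes. The latter pair stands outside the naming rule and was chosen after its values were seen. Cxcl10 read 7.33, 7.25 and 8.21 with hPTH(7-34), 6.55, 6.99 and 6.18 with hPTH(1-34), and 5.99, 6.18 and 5.82 with vehicle. All hPTH(7-34) arrays lay above those of hPTH(1-34), which in turn reached from the top of the vehicle range upward. The change was 1.60 ± 0.24 (SE) with hPTH(7-34) (adjusted p = 0.00759) and 0.58 with hPTH(1-34) (adjusted p = 0.179). The direct difference was 1.02 ± 0.24 (SE; adjusted p = 0.00884), a call that was lost without hPTH(7-34) replicate 3 (0.72, adjusted p = 0.0502) or hPTH(1-34) replicate 3. Its call against vehicle was lost without vehicle replicate 3.

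Gm12250 read 6.72, 6.86 and 7.17 with hPTH(7-34), with hPTH(1-34) and vehicle arrays between 5.59 and 6.23, and Gm8995 read 6.48, 6.30 and 6.47 against 5.62 to 5.76 with hPTH(1-34). Their direct differences were 1.04 ± 0.19 and 0.73 ± 0.14 (SE). The call of Gm12250 against vehicle (adjusted p = 0.035) was lost in 6 of the 9 fits without an array, while that of Gm8995 (adjusted p = 0.00221) was kept in all 9. Pstpip2 differed by 0.34 ± 0.09, on the brighter of its clusters, and by 0.10 on the mean of both (adjusted p = 0.555), and its direct call was lost without hPTH(7-34) replicate 3 or hPTH(1-34) replicate 2 or 3. Its call against vehicle (adjusted p = 0.0441) was lost in 7 of the 9 fits. Of the lower genes, the homeobox gene Gbx2 differed by -0.58 ± 0.09 and Nrarp, a feedback inhibitor of Notch, by -0.48 ± 0.09 (SE), and both lost their calls against vehicle without vehicle replicate 3, as did Gbx2 without hPTH(7-34) replicate 3 and Nrarp without hPTH(7-34) replicate 2. Hoxa7, a homeobox gene and the only shared lower gene, read 2.97, 3.10 and 3.10 with hPTH(7-34), 3.43, 3.23 and 3.59 with hPTH(1-34), and 3.67 to 3.91 with vehicle. Its direct call (-0.36, adjusted p = 0.038) was lost in 5 of the fits that each left out an array, those without any 1 of the hPTH(7-34) replicates or without hPTH(1-34) replicate 1 or 3, and its call with hPTH(1-34) against vehicle (adjusted p = 0.0449) was lost in 7 of 9. Against bPTH(3-34) in place of vehicle, neither Hoxa7, Gbx2 nor Nrarp was called with hPTH(7-34).

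The NF-kappaB motif, GGG and TTCC with any 3 bases between, was searched in the same windows on both strands. It occurred in 5.43% of all genes, in 5.75% and 5.01% of the higher and lower genes of the hPTH(1-34) part, and in 2 of the 8 shared genes, Nfkbie and Tlr2. Windows of inflammatory genes of each part that held the NF-kappaB motif are shown side by side, with matches to this motif or to TGACG in capitals. Il6 at chr5:30012864-30013113 (plus strand) and Cxcl1 at chr5:90890995-90891244 (plus strand) are of the hPTH(1-34) part, Tlr2 at chr3:83841609-83841858 (minus strand) and Nfkbie at chr17:45555450-45555699 (plus strand) are shared, and Cxcl10 at chr5:92348890-92349139 (minus strand) is of the hPTH(7-34) part.
Il6: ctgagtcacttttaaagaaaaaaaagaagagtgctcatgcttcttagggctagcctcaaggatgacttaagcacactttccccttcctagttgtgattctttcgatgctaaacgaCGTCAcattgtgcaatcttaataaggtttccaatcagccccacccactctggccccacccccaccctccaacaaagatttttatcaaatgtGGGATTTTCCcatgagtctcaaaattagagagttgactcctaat
Cxcl1: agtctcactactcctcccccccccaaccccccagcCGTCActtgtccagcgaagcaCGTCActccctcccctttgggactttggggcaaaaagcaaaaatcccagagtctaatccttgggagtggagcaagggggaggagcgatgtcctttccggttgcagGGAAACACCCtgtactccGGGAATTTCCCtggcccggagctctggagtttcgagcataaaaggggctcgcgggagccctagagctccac
Tlr2: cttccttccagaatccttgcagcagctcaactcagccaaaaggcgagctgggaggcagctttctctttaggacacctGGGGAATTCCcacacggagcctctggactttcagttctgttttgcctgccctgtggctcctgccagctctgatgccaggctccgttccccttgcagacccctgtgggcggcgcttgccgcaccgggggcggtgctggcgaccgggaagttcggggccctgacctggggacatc
Nfkbie: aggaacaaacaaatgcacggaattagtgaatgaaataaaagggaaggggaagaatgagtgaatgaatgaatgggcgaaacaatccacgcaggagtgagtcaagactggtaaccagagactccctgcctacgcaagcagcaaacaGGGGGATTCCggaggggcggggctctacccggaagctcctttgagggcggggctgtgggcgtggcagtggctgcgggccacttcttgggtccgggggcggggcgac
Cxcl10: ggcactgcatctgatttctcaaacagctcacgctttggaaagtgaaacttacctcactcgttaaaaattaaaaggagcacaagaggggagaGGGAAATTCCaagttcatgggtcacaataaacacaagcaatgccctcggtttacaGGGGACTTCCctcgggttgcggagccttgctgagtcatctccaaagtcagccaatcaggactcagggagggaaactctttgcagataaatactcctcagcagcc

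Il6 held 1 match to TGACG, which begins 135 bases before the start, and 1 to the NF-kappaB motif, at 44. Cxcl1 held 2 matches to TGACG, at 215 and 194, and 3 to the NF-kappaB motif, at 89, 71 and 70, the last of which overlap. Tlr2 and Nfkbie held 1 match to the NF-kappaB motif each, at 173 and 106, and Cxcl10 held 2, at 159 and 104. In the direct comparison Il6 and Cxcl1 were at -2.45 and -0.83 and Cxcl10 was at 1.02. These windows were chosen because they held the NF-kappaB motif. Its presence on both sides of the division therefore follows from the choice, and no conclusion is drawn from it.

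Cell cycle genes also differed directly without belonging to the inflammatory lists. Of 35 measured, 11 were higher and 0 lower with hPTH(7-34) (2 lower at an unadjusted p under 0.05), with a median of 0.20. Over all genes 6.66% were higher and 4.2% lower. The mitotic genes Bub1 and Kif11 differed by 0.42 ± 0.09 and 0.42 ± 0.10, and cyclin D1, Ccnd1, by 0.33 ± 0.08 (SE). hPTH(1-34) lowered 7 of the 35 against vehicle, while hPTH(7-34) gave 0 calls in limma (1 higher and 1 lower at an unadjusted p under 0.05) and a median of 0.03. The count of 11 was 14 with arrays centred, 6 after a further quantile normalization, 2 with the spread estimated only from the arrays compared, and 5 to 10 with an array of either peptide left out (5 without hPTH(7-34) replicate 1, 7 without hPTH(7-34) replicate 3 or hPTH(1-34) replicate 1).

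The genes were also compared on arrays whose means had no role in dividing them, although these arrays entered the estimate of each gene's spread behind every call. On hPTH(1-31), which keeps the first residues, against bPTH(3-34), which starts at residue 3, 2027 genes were called (9.14%), 938 higher (4.23%) and 1089 lower (4.91%). These peptides also differ in species, human against bovine, and in where they end. bPTH(3-34) lacks fewer of the first residues than hPTH(7-34), so this was not a like-for-like repeat of the direct comparison. Of the hPTH(1-34) part, 542 of the 630 higher genes were called higher (86.0%) and 646 of the 853 lower genes lower (75.7%), with 0 of either set called in the other direction. The median differences were 0.67 and -0.48, against -0.01 over all genes. With the spread of each comparison taken only from its own arrays, so that none entered both, the hPTH(1-34) part held 445 higher and 528 lower genes, and 715 of them were called in the same direction. In the fit to all arrays, Vdr differed by 4.03 ± 0.10, Il6 by 2.49 ± 0.25 and Lgr5 by -1.82 ± 0.07 (SE). Of the 9 shared genes, 8 were called higher, among them Ccl12 at 1.90 ± 0.15 and Tnf at 1.57 ± 0.16 (SE), while Tlr2 at 0.34 was not (adjusted p = 0.0678). The 4 higher genes of the hPTH(7-34) part gave 0 calls at that threshold, with Cxcl10 at 0.57 ± 0.24 (SE; adjusted p = 0.17) and the others between -0.08 and 0.04.

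With PTH(1-36) in place of hPTH(1-31), 1599 genes were called (7.21%), 3.35% of genes higher and 3.86% lower. Here 491 of the 630 higher genes, 556 of the 853 lower genes and 5 of the 9 shared genes were called in the same direction. Both of these comparisons use the same bPTH(3-34) arrays. The shared genes were chosen by their values on the hPTH(7-34) arrays, so their differences from bPTH(3-34) are a description. With hPTH(7-34) minus bPTH(3-34), Acod1 (2.13 ± 0.27, SE), Gpr84 (1.53 ± 0.21) and Clec4e (1.08 ± 0.18) were called (adjusted p = 0.00353, 0.00586 and 0.027). Ccl2 was not called there (0.97, adjusted p = 0.105).

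**Figure D5:**
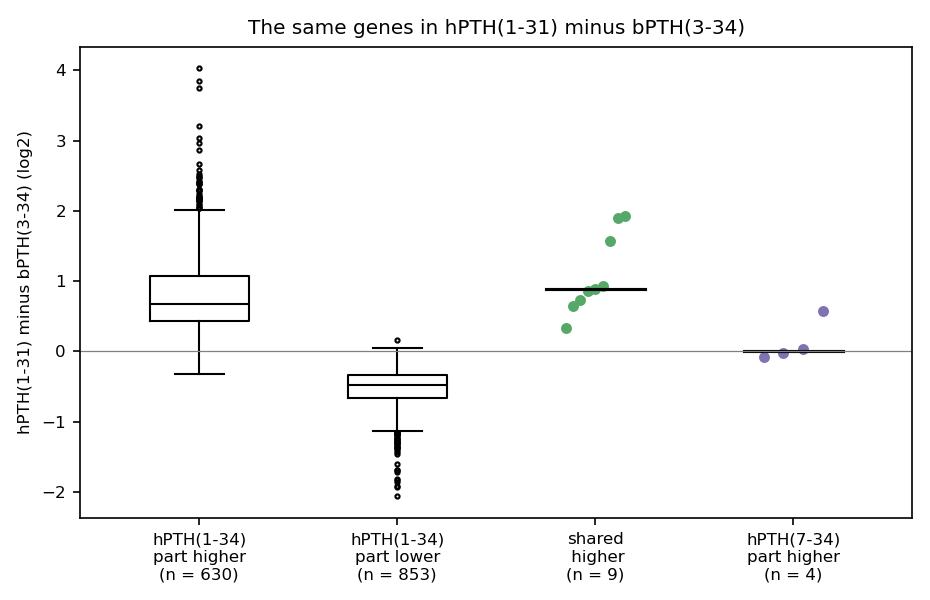
Difference between hPTH(1-31) and bPTH(3-34) (y axis, log2) for the genes of 4 parts, on arrays whose means did not enter the comparisons that divided the genes but which shared in the estimate of spread. Boxes give the median, the quartiles and points beyond 1.5 times the interquartile range, and dots give single genes with a line at their median; the medians are 0.67 and -0.48 for the hPTH(1-34) part, 0.89 for the shared genes and 0.01 for the hPTH(7-34) part.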

How the data were processed

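Total RNA (100 ng) of 21 cultures was hybridised to Mouse Gene 2.0 ST arrays. The deposited values are log2 signals, one table for all arrays, made with Affymetrix Expression Console and RMA (versions not given in the sources used here) per the submitters' processing notes. The base of the logarithm was read from the method and the range, 0.25 to 13.6, and folds rest on it. Of 41345 transcript clusters, 23521 had 1 symbol, and the cluster with the highest mean stood for each of 22180 genes (1082 had several).

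Group means were fitted in limma 3.58.1 (R 4.3.3, lmFit, eBayes) over all 21 arrays and 7 groups, with two-sided tests adjusted by Benjamini-Hochberg over all genes. Members, parts and lists were chosen with earlier results of these data known. Genes were named by rule, which took the 15 highest and 15 lowest direct differences without overlap, 10 genes of each part, up to 4 members of each of 29 lists by adjusted p, and a panel of 36 genes (34 measured), without predicted and small RNA genes. p-values set each difference against the spread between separate cell preparations within groups. This spread was pooled over all 7 groups and moderated across genes by eBayes. On simulated data for the direct comparison of 22180 genes, 45.4%, 85.6% and 99.6% of genes changed 1.5-, 2- and 4-fold were recovered, with 0 of the wrong sign, and 5.5% to 6.2% of calls were false. Each of 5 runs per fold drew independent normal noise and changed 200 genes in hPTH(7-34) only. Effects in other groups and shifts of whole arrays were not simulated, so these rates need not hold for the measured data. Python 3.11.15 with pandas 2.3.3 was used for counts and promoters. Alternatives covered the spread, scaling, filter, clusters, thresholds, controls and left-out arrays. Same-numbered replicates correlated at -0.014 to 0.095 in their deviations from group means, so numbers were not taken to pair arrays.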

Additional observations from a re-analysis of the deposited data

Results flagged for a closer look

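Transcript clusters without a single gene symbol, 17824 in number, were left out of the comparisons. Of these, 85 were called between hPTH(7-34) and hPTH(1-34), 43 higher and 42 lower with hPTH(7-34). Of the 22180 genes 10.9% were called, 6.66% higher and 4.2% lower. The clusters are not among the genes over which the other calls were adjusted, so these shares are not strictly comparable. Against vehicle 60 clusters were called with hPTH(1-34), 2 with hPTH(7-34) and 0 with bPTH(3-34), beside 8.64%, 0.0721% and 0% of genes. The annotation used gives these clusters several symbols or none.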

How the results depend on the processing

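Over 133 recomputed values of 12 results, apart from the fits that left out an array, 93 stayed within 1.5 times the reported value and 40 moved further. Of the 121 named genes called directly 0 changed direction. Direct calls were lost in 25 of the 121 with only the arrays compared, and in up to 16 with an array left out. With only the arrays compared, the direct contrast gave 1425 calls (818 higher, 607 lower), hPTH(7-34) against vehicle 1, shared higher 0, shared lower 0, the hPTH(1-34) part 528 lower genes, the hPTH(7-34) part 1 higher and 0 lower, and hPTH(1-31) minus bPTH(3-34) calls within the hPTH(1-34) part 715. With the replicate number as a block, direct calls were 2826 and shared lower 2, and shared higher was 8 (Tnf lost), but the numbers were not taken to pair the arrays. An intensity trend gave 30 calls for hPTH(7-34), shared higher 14, shared lower 0 and 11 higher genes in the hPTH(7-34) part. Centred arrays gave 2421 direct higher calls and 7 higher genes in the hPTH(7-34) part, and genes with a mean of at least 4 gave 0 shared lower and 7. The mean of clusters gave 1 lower gene in the hPTH(7-34) part. At an adjusted p under 0.01, direct calls were 1303 (778 and 525), hPTH(1-34) calls 1128, shared lower 0, the hPTH(1-34) part 498 lower, the hPTH(7-34) part 2 higher, and hPTH(1-31) minus bPTH(3-34) calls within the hPTH(1-34) part 785. With at least 1.5-fold they were 908 (471 and 437), 783, shared lower 0, the hPTH(1-34) part 333 higher and 276 lower, the hPTH(7-34) part 0 lower, and 524. With bPTH(3-34) as control, chosen after seeing the data, shared lower was 0 for either peptide and the hPTH(7-34) part 0 lower.

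Leaving out each array in turn gave direct calls of 1700 to 2457 (987 to 1516 higher, 700 to 941 lower), hPTH(1-34) calls of 1421 to 1849, hPTH(7-34) calls of 6 to 24, shared higher 5 to 11, shared lower 0 to 2, the hPTH(1-34) part 502 to 575 higher and 609 to 789 lower, the hPTH(7-34) part 1 to 5 higher and 0 to 5 lower, and hPTH(1-31) minus bPTH(3-34) calls within the hPTH(1-34) part 967 to 1099. The cause of these changes was not tested. Each of these fits had fewer arrays behind the spread and also left an array out of a group mean.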

Other observations

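Other lists held genes not yet described. Of 18 triacylglycerol storage genes, 4 were higher and 2 lower with hPTH(7-34) than with hPTH(1-34), against 6.66% and 4.2% of all genes. Dgat2, a second enzyme of the last synthetic step, read 5.97, 5.93 and 5.95 with hPTH(1-34) and 4.96, 5.06 and 5.17 with hPTH(7-34), and Pparg, the adipocyte transcription factor, differed by 0.59 ± 0.12 (SE). Of 45 growth factors and receptors, 10 were higher and 5 lower with hPTH(7-34), with Egfr, a growth factor receptor, at 0.67 ± 0.08 and Igfbp5, which binds insulin-like growth factors, at -0.48 ± 0.07 (SE). Of 28 genes of unfolded protein and amino acid stress, 0 were higher and 3 lower with limma, and 2 were higher at an unadjusted p under 0.05. The share called, 10.7%, was near the 10.9% of all genes. The amino acid transporter Slc7a5 read 9.03, 9.04 and 8.79 with hPTH(1-34) and 7.89, 7.94 and 8.02 with hPTH(7-34), without overlap, and Ddit4, an inhibitor of mTOR, differed by -0.83 ± 0.10 (SE).

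Muscle and smooth muscle markers held 1 of the larger differences outside the lists above. Cnn1, calponin, read 10.82, 10.79 and 10.81 with hPTH(1-34) and 8.75, 8.66 and 8.81 with hPTH(7-34), whereas Tagln, another smooth muscle gene, was higher with hPTH(7-34) by 0.42 ± 0.10 (SE), a call lost without replicate 2 of either peptide (adjusted p up to 0.0633). Of the 16 markers, 2 were higher and 1 lower, against 6.66% and 4.2% of all genes. Of 12 neutrophil, erythroid and lymphoid markers, 0 were called in the direct comparison by limma, with 2 lower at an unadjusted p under 0.05.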
